A study of Arabidopsis thaliana with 16 samples.

Results

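The genes described here encode nuclear subunits of the photosynthetic apparatus, namely the light-harvesting antenna proteins (LHCA and LHCB), the subunits of photosystems I and II (PSA and PSB) and the small subunit of Rubisco (RBCS). The 45 genes were chosen by their locus identifiers among the 37336 identifiers of the count files, by a rule that uses no measured value, and all 45 were present in the files. The group itself was picked with earlier results of these data known. Stored mRNA was measured by 3′RNA-Seq, a method primed at the poly(A) tail that reads the end of each mRNA, in mature dry seeds of Arabidopsis thaliana. The groups were wild-type Col-0, each single mutant (brm-3 or dog1-4) and their cross brm-3dog1-4, the double mutant, with 4 libraries each and 16 in all. The brm-3 allele is a T-DNA insertion in BRAHMA (BRM), the ATPase of a SWI/SNF chromatin remodelling complex, and leaves a protein without its bromodomain, while dog1-4 is an insertion in DELAY OF GERMINATION 1 (DOG1), a regulator of seed dormancy. Each mutation was represented by 1 allele, all plants were grown in long days and the seeds were stored dry at room temperature with no other treatment.

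Photosystem II splits water, photosystem I reduces ferredoxin, and the antenna proteins around both bind chlorophyll and pass on the energy of absorbed light. Rubisco fixes CO2 in the Calvin cycle and is built of a plastid-encoded large subunit and nuclear-encoded small subunits. In green leaves the mRNAs of these genes are among the most abundant of all. Arabidopsis embryos are green in mid-development, lose their chlorophyll as they mature, and rebuild the apparatus after germination under the control of light and of factors such as the GOLDEN2-LIKE (GLK) proteins and HY5.

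Library totals ran from 803578 to 2359673 counts. Levels are given in CPM, counts per 1000000 of the library size scaled by TMM (trimmed mean of M-values), and since each transcript gives reads from its 3′ end, CPM was not divided by transcript length. A floor of 3 counts in a library corresponded to between 0.964 and 3.87 CPM. The targeted genes were read first. DOG1 (AT5G45830) had 124 to 203 counts in the Col-0 libraries and 2 to 10 in the libraries of dog1-4 and brm-3dog1-4. BRM (AT2G46020) was lower in brm-3, with a log2 fold change of -1.29 ± 0.23 (SE), and in brm-3dog1-4, with -1.24 ± 0.21. All 7 markers of the mature embryo and seed, such as cruciferins and oleosin, were abundant, with a summed level between 53920 and 114750 CPM over the 16 libraries. Of 5 seed coat markers 2 were at 0 in all Col-0 libraries, and the 5 summed to between 1.61 and 7.74 CPM over the 16 libraries. The 5 endosperm markers were all at 0 in Col-0 and dog1-4 and summed to at most 4.18 CPM in any library. The series text calls the libraries biological replicas. For other assays of these lines the study pooled several plants per replicate, and for the sequenced libraries the number is not stated, so p-values measure the spread between these libraries.

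Upstream sequence is shown for 3 of the genes, chosen after their values were seen. RBCS1A (AT1G67090) had the largest increase in brm-3dog1-4 among the 10 tested genes, LHCA4 (AT3G47470) an increase, and LHCB4.1 (AT5G01530) the highest level in Col-0 and a decrease. Each is the 200 bases directly before the annotated gene start in the TAIR10.1 assembly of RefSeq, 5′ to 3′ on the strand of the gene, at chr1:25049668-25049867 (minus strand), chr3:17495034-17495233 (minus strand) and chr5:208666-208865 (plus strand). No other annotated gene overlaps these windows. Capitals mark matches on either strand to the G-box CACGTG, which bHLH and bZIP factors such as PIFs and HY5 bind, to CCAATC, a motif tied to GLK targets, to the I-box GATAAG, to the RY core CATGCA of seed B3 factors, and to TGACG of TGA-type bZIP factors. A TGACG match may share its first bases with a G-box.
RBCS1A: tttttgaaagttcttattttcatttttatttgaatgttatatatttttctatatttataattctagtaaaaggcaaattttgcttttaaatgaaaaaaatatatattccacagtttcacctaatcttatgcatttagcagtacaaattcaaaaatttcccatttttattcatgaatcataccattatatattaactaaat
LHCA4: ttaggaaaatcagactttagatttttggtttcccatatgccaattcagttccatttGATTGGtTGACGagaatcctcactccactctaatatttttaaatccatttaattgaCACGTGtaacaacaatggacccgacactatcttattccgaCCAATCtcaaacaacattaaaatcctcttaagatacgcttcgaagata
LHCB4.1: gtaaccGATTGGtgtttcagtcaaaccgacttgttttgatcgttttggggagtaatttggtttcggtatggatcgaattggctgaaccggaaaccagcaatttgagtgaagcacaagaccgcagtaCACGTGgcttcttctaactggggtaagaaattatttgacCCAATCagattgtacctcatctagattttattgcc

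The windows of LHCA4 and LHCB4.1, genes that changed in opposite directions in brm-3dog1-4, each held 1 G-box and 2 CCAATC matches, and LHCA4 also held TGACG. The RBCS1A window held none of the 5 motifs, which says only that these letters are absent from 200 bases before the annotated start. In the 250 bases before the gene start, the G-box was present in 9 of the 45 genes (20%) and in 6.49% of 27443 annotated genes, CCAATC in 11 (24.4%) against 10.2%, and the I-box in 10 (22.2%) against 12.3%. TGACG was present in 28.9% of the 45 genes against 18.6%, and the RY core in 8.89% against 8.43%. These shares are a description, and a match is not a binding site.

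The 45 genes together held a small part of the stored mRNA. Their share of all counts was 0.0140% ± 0.0013 (SD, n = 4) in Col-0, 0.0181% ± 0.0005 in brm-3, 0.0231% ± 0.0016 in dog1-4 and 0.0361% ± 0.0067 in the double mutant. On the TMM scale the summed level in the 4 Col-0 libraries was 150.4, 157.1, 175.3 and 167.2 CPM. It was 200.7, 192.3, 218.0 and 212.2 CPM in brm-3 and 237.8, 236.2, 233.0 and 216.0 CPM in dog1-4. The brm-3dog1-4 libraries had 249.4, 327.7, 245.3 and 316.9 CPM. All 12 mutant libraries lay above the highest Col-0 library, and the brm-3dog1-4 libraries were the most spread. The group means were 162.5 ± 11.0 CPM (SD) in Col-0, 205.8 ± 11.5 in brm-3, 230.7 ± 10.0 in dog1-4 and 284.8 ± 43.5 in the double mutant, each with n = 4. Seeds were sampled whole, so more cells that express a gene and more mRNA per cell cannot be told apart. Without RBCS1A the means were 153.8 ± 8.3 CPM in Col-0, 181.3 ± 10.3 in brm-3, 195.1 ± 17.8 in dog1-4 and 204.7 ± 23.2 in the double mutant.

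**Figure D1:**
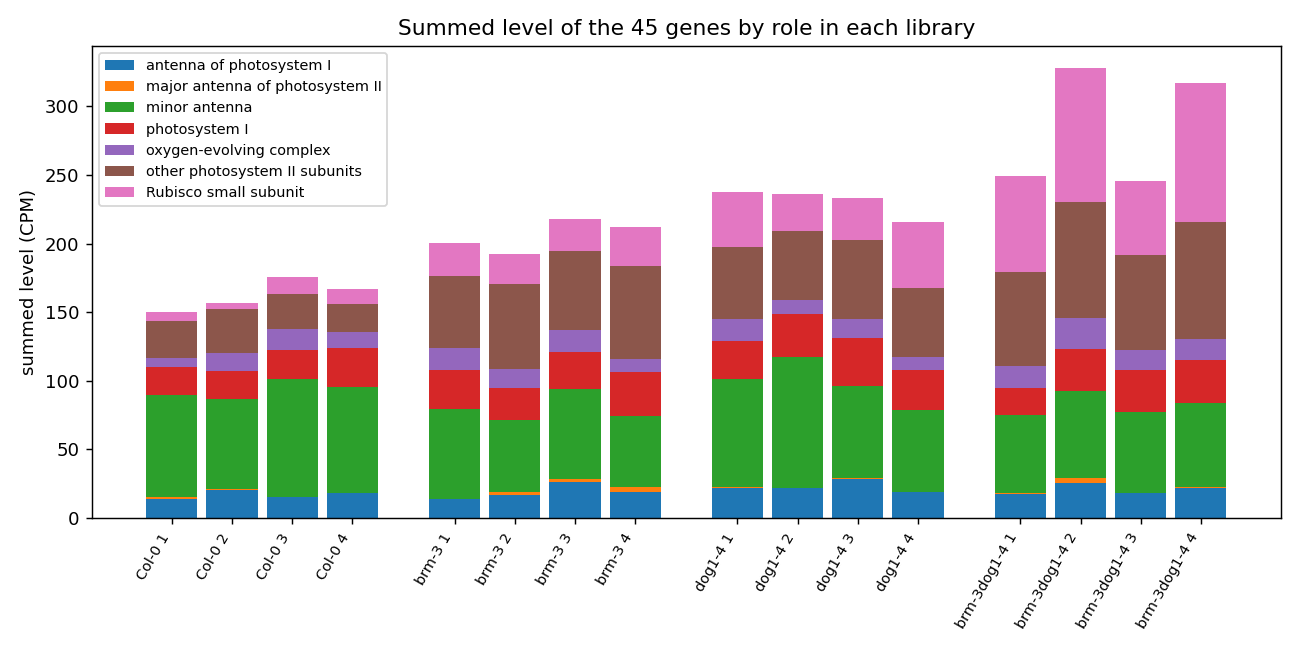
Summed level of the 45 genes in each of the 16 libraries, in CPM on the vertical axis, stacked by the role of the encoded protein. The Rubisco part averages 8.74 CPM in Col-0 and 80.4 CPM in brm-3dog1-4, while the minor antenna part is 76.1 CPM in Col-0 and 60.2 CPM in brm-3dog1-4.

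The make-up of this small pool differed between Col-0 and the double mutant. In Col-0, LHCB4.1, an inner antenna protein (CP29) of photosystem II, gave 346 of the 969 counts of the 45 genes (35.7%), and RBCS1A, the main small subunit gene of leaves, gave 52 (5.37%). In brm-3dog1-4 LHCB4.1 gave 12.3% and RBCS1A 29.0% of 2659 counts. LHCB4.1 stood above 91.6% of the 21204 genes with at least 1 count when ranked by the mean share of counts in Col-0, PSBR above 78.2%, RBCS1A above 64.3% and LHCA4 above 47.6%.

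Of the 45 genes, 10 passed the filter on low counts and entered the test, which covered 10251 genes in all. These 10 held 91.7% of the 6100 counts of the 45 genes. The filter asks for enough counts in 4 libraries, which may all be mutant ones. Genes with few counts in Col-0 passed it through mutant libraries where they were higher. Among them were LHCA4, LHCB4.3 and PSBW, with at most 7, 6 and 12 counts in a Col-0 library. RBCS1A (14, 6, 15 and 17 counts in the Col-0 libraries) and PSBP1 (13, 14, 18 and 16) also needed mutant libraries to pass. The numbers of genes higher and the medians below therefore lean towards increases. A gene was called at a Benjamini-Hochberg adjusted p under 0.05 in edgeR's quasi-likelihood fit. In brm-3 against Col-0, 3 of the 10 rose (RBCS1A, PSBR and PSBW) and LHCB4.1 fell, where 5.22% of all tested genes were higher and 5.02% lower. In dog1-4, 5 rose (RBCS1A, PSBR, PSBW, LHCA4 and LHCB4.3) and none fell, against 9.84% higher and 8.58% lower among all tested genes. At an unadjusted p under 0.05 none of the 10 was lower in dog1-4 either, and DESeq2 also called none lower. In brm-3dog1-4, 6 rose (RBCS1A, PSBW, LHCA4, PSBR, LHCB4.3 and PSBP1) and 2 fell (LHCA5 and LHCB4.1), against 22.8% higher and 23.3% lower. With the added limit of a log2 fold change over 1, 2 genes were higher in brm-3 (background 2.07%), 4 in dog1-4 (4.2%) and 5 in brm-3dog1-4 (10.5%). The 3 comparisons share the Col-0 libraries. For the 10 genes the median log2 fold change reached 0.33 (brm-3), 0.66 (dog1-4) and 0.93 (brm-3dog1-4), and that of all tested genes was 0.00, 0.00 and 0.01.

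The direction of the small changes depended on the scale. With library size in place of TMM the median log2 fold change of all tested genes stood at 0.03 in brm-3, 0.22 in dog1-4 and 0.58 in the double mutant, and the 10 genes then gave 3 higher and 0 lower in brm-3 and 8 higher and 0 lower in brm-3dog1-4. It gave 6 higher and 0 lower in dog1-4. Against brm-3 the double mutant then had 8 higher and 0 lower, in place of 3 and 0, and against dog1-4 4 and 0, in place of 3 and 1. All changes below are relative to the TMM scale. The use of strand in counting is not given in the sources used here, and LHCA4, LHCA5, LHCB4.2, PSBP1 and PSBR overlap an annotated gene on the other strand and PSAD2 and PSBP1 one on the same strand, whose reads cannot be told apart from theirs. RBCS1A, PSBW, LHCB4.1 and LHCB4.3 overlap no other annotated gene.

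**Figure D2:**
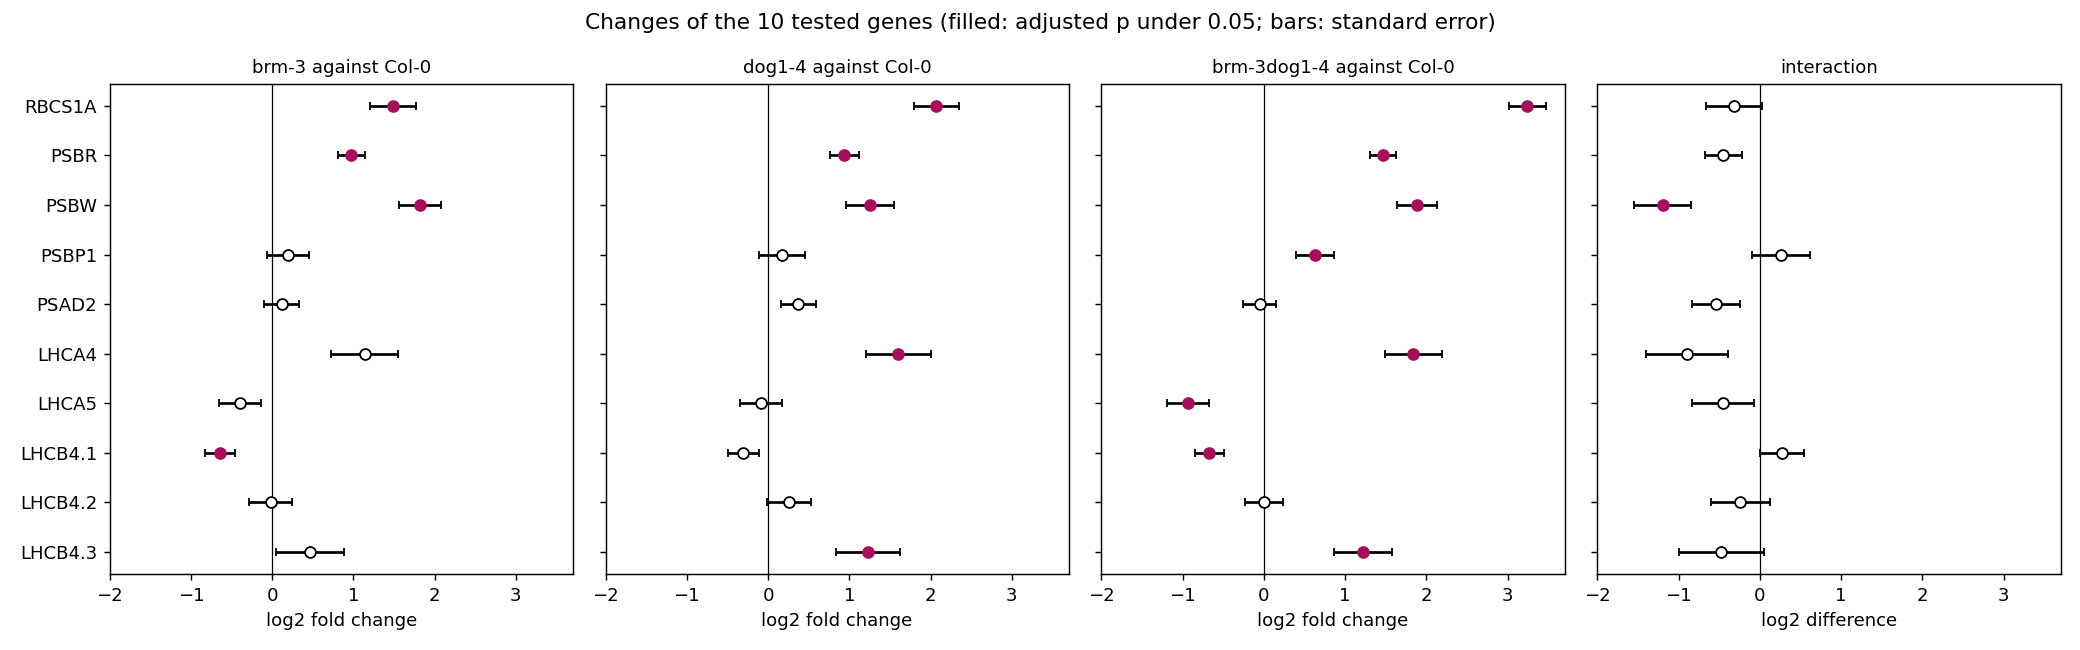
Log2 fold change on the horizontal axis, with its standard error, of the 10 tested genes in each mutant against Col-0, and the interaction (the brm-3dog1-4 change minus the sum of the single mutant changes). Filled points have an adjusted p under 0.05: 4 in brm-3, 5 in dog1-4, 8 in brm-3dog1-4 and 1 for the interaction.

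RBCS1A had the largest fold increase of the 10 tested genes in dog1-4 and brm-3dog1-4. The Rubisco small subunits form the caps of the enzyme and support its activity. RBCS1A stood at 7.07, 4.88, 12.1 and 10.9 CPM in Col-0 and at 23.9, 21.8, 23.3 and 28.8 CPM in brm-3. In dog1-4 it stood at 40.4, 27.1, 28.5 and 46.6 CPM, and in brm-3dog1-4 at 69.6, 96.4, 53.4 and 100.9 CPM. No mutant library overlapped Col-0, and each brm-3dog1-4 library lay above every single mutant library. The increase was 2.81-fold in brm-3 (log2 1.49 ± 0.28 SE, adjusted p = 3.8e-04), 4.21-fold in dog1-4 (2.07 ± 0.27, adjusted p = 5.0e-07) and 9.47-fold in brm-3dog1-4 (3.24 ± 0.22, adjusted p = 4.9e-14). The double mutant was 3.37-fold above brm-3 (adjusted p = 8.8e-10) and 2.25-fold above dog1-4 (adjusted p = 3.7e-06). The interaction was -0.32 ± 0.34 (adjusted p = 0.647). Without brm-3dog1-4 replicate 2, the increase over Col-0 was 3.14 ± 0.22 on the log2 scale.

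The other 3 small subunit genes were nearly silent. RBCS1B (AT5G38430) had 1 count in all 16 libraries, in dog1-4, RBCS2B (AT5G38420) had 0, and RBCS3B (AT5G38410) had 8, none of them in Col-0. The last 300 transcript bases of RBCS1A share runs of at most 12 bases with these 3 genes. Here and below the longest annotated transcript of each gene was compared. Where the reads fell is not known, so this does not show that the copies were told apart. RBCS1A lies at chr1:25048158-25049667 on the minus strand with 3 exons, and RBCS1B, RBCS2B and RBCS3B lie together on chromosome 5 between 15376988 and 15385320.

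PSBR (AT1G79040) and PSBW (AT2G30570), small nuclear subunits of photosystem II, rose in all 3 mutants. PSBR helps to hold the oxygen-evolving complex, and PSBW stabilises photosystem II with its antenna. PSBR stood at 19.2, 26.0, 21.7 and 14.1 CPM in Col-0, at 36.9, 40.0, 38.8 and 40.6 CPM in brm-3 and at 38.5, 37.4, 41.5 and 35.1 CPM in dog1-4. In brm-3dog1-4 it stood at 48.9, 56.2, 46.4 and 65.3 CPM. The single mutants overlapped each other and lay between Col-0 and the double mutant with no overlap to either. PSBR was 1.96-fold higher in brm-3 (log2 0.97 ± 0.17, adjusted p = 2.1e-05), 1.92-fold in dog1-4 (0.94 ± 0.18, adjusted p = 4.2e-05) and 2.76-fold in brm-3dog1-4 (1.46 ± 0.15, adjusted p = 4.0e-12). The double mutant exceeded brm-3 by 0.49 ± 0.13 and dog1-4 by 0.53 ± 0.14 on the log2 scale (adjusted p = 0.0022 and 0.0032).

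PSBW stood at 6.06, 5.70, 4.02 and 6.43 CPM in Col-0 and at 15.7, 21.2, 17.3 and 25.9 CPM in brm-3. It stood at 12.4, 12.9, 13.8 and 15.3 CPM in dog1-4 and at 18.2, 26.0, 20.2 and 18.4 CPM in brm-3dog1-4. Every mutant library lay above Col-0, and brm-3 and brm-3dog1-4 covered nearly the same range. The increase was 3.53-fold in brm-3 (log2 1.82 ± 0.26, adjusted p = 2.5e-07), 2.39-fold in dog1-4 (1.26 ± 0.29, adjusted p = 8.6e-04) and 3.68-fold in brm-3dog1-4 (1.88 ± 0.24, adjusted p = 2.4e-09). The double mutant differed from brm-3 by 0.06 ± 0.18 (adjusted p = 0.827) and exceeded dog1-4 by 0.62 ± 0.21 (adjusted p = 0.0215), a call lost without dog1-4 replicate 1 (0.57, adjusted p = 0.0785), without brm-3dog1-4 replicate 2 (0.46, adjusted p = 0.151) and in DESeq2 (adjusted p = 0.0793).

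PSBW was also the only one of the 10 genes with a called interaction, -1.20 ± 0.35 on the log2 scale (adjusted p = 0.0193). Its double mutant change was thus smaller than the sum of the single mutant changes. Among all tested genes 6.84% had a called negative interaction and 1.95% a positive one, and 2.17% a negative one under -1. The call was lost without brm-3 replicate 4 (-1.05, adjusted p = 0.0558) and with library size as the scale (-0.87, adjusted p = 0.101), and DESeq2 gave it no adjusted p. PSBX (AT2G06520) and PSBY (AT1G67740), the other photosystem II subunits of the list, had 15 and 17 counts over all libraries.

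PSBP1 (AT1G06680), a lumenal protein of the oxygen-evolving complex, rose in brm-3dog1-4. It stood at 6.56, 11.4, 14.5 and 10.3 CPM in Col-0 and at 14.9, 19.3, 12.3 and 14.7 CPM in brm-3dog1-4, with an overlap between the groups. The single mutants lay at 7.05 to 14.9 CPM (brm-3) and 9.04 to 13.0 CPM (dog1-4). The increase in the double mutant was 1.55-fold (log2 0.63 ± 0.23, adjusted p = 0.0234). The call was lost without Col-0 replicate 1 (0.41, adjusted p = 0.194), without brm-3dog1-4 replicate 2 (0.48, adjusted p = 0.135) and in DESeq2 (0.60, adjusted p = 0.0911). In the same complex PSBO1 (AT5G66570) had 12 counts in all, PSBO2 (AT3G50820) 7, PSBQ1 (AT4G21280) 18 and PSBQ2 (AT4G05180) 5.

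Photosystem I subunits were represented by PSAD2 (AT1G03130), part of the docking site of ferredoxin. PSAD2 stood at 16.1, 13.8, 16.9 and 19.9 CPM in Col-0, at 21.8, 15.2, 14.9 and 21.2 CPM in brm-3, at 18.6, 19.4, 25.3 and 23.7 CPM in dog1-4 and at 12.8, 15.4, 14.0 and 21.8 CPM in brm-3dog1-4. All groups overlapped. Its log2 differences from Col-0 were 0.12 ± 0.21, 0.37 ± 0.22 and -0.05 ± 0.20, none called, and summing it with its copy PSAD1 (AT4G02770) gave 0.02, 0.26 and -0.15. With library size as the scale PSAD2 turned to a called 0.52 in brm-3dog1-4 (adjusted p = 0.0318) and reached 0.59 in dog1-4 (adjusted p = 0.0498). PSAD1 had 11 counts in Col-0, 4 in brm-3, 3 in dog1-4 and 5 in the double mutant.

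The antenna of photosystem I held 1 gene that rose and 1 that fell. LHCA4, whose protein pairs with LHCA1 and carries the far-red chlorophylls of this antenna, stood at 2.52, 2.44, 1.61 and 4.5 CPM in Col-0 and at 4.1, 6.67, 7.17 and 7.05 CPM in brm-3. In dog1-4 it stood at 8.07, 7.74, 9.77 and 9.16 CPM and in brm-3dog1-4 at 7.46, 13.8, 5.26 and 11.7 CPM. The dog1-4 and double mutant libraries all lay above Col-0, and 1 brm-3 library overlapped it. LHCA4 was 3.04-fold higher in dog1-4 (log2 1.60 ± 0.40, adjusted p = 0.0020) and 3.58-fold higher in brm-3dog1-4 (1.84 ± 0.35, adjusted p = 1.3e-05). In brm-3 the difference was 1.14 ± 0.41 (adjusted p = 0.0622), which was called without Col-0 replicate 4 (1.46, adjusted p = 0.0394) or without brm-3 replicate 1 (1.28, adjusted p = 0.0427).

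The LHCA4 counts were low, 2 to 7 in the Col-0 libraries, and its difference between brm-3dog1-4 and brm-3 (0.70 ± 0.29, adjusted p = 0.0448) lost its call in 9 of the alternatives, among them without brm-3dog1-4 replicate 2 (0.46, adjusted p = 0.290). LHCA4 lies at chr3:17493343-17495033 on the minus strand with 4 exons.

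LHCA5 (AT1G45474), an antenna protein of low abundance in leaves, had the opposite direction. LHCA5 stood at 10.6, 17.1, 13.7 and 13.5 CPM in Col-0 and at 7.46, 6.75, 8.76 and 5.86 CPM in brm-3dog1-4, with no overlap. The single mutants lay between 6.46 and 16.7 CPM and overlapped Col-0. It fell by 0.93 ± 0.26 on the log2 scale in brm-3dog1-4 against Col-0 (adjusted p = 0.0024) and by 0.85 ± 0.28 against dog1-4 (adjusted p = 0.0163). The second call was lost without dog1-4 replicate 3 (-0.70, adjusted p = 0.0958), and with library size as the scale the values were -0.36 (adjusted p = 0.216) and -0.50 (adjusted p = 0.136). Against brm-3 the difference was -0.54 ± 0.27 (adjusted p = 0.114), called without brm-3 replicate 4 (-0.71, adjusted p = 0.0439).

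The inner antenna of photosystem II differed between its CP29 copies. LHCB4.1 stood at 60.1, 46.4, 63.5 and 58.5 CPM in Col-0, at 47.8, 30.9, 40.6 and 28.8 CPM in brm-3, at 53.4, 72.3, 24.4 and 42.0 CPM in dog1-4 and at 34.8, 36.9, 35.0 and 36.4 CPM in brm-3dog1-4. The double mutant libraries lay close together and below Col-0, and the dog1-4 libraries spread across the whole range. LHCB4.1 fell by 0.67 ± 0.18 on the log2 scale in brm-3dog1-4 (adjusted p = 0.0022) and by 0.64 ± 0.18 in brm-3 (adjusted p = 0.0214). The brm-3 call was lost, at log2 values from -0.63 to -0.54, without Col-0 replicate 1 (adjusted p = 0.0735), 3 (0.0683) or 4 (0.0574) and without brm-3 replicate 2 (0.0830) or 4 (0.0806). With library size as the scale the changes were -0.62 in brm-3 (adjusted p = 0.0676) and -0.11 in brm-3dog1-4 (adjusted p = 0.656), and the difference between brm-3dog1-4 and brm-3, -0.03 on the TMM scale, turned to a called 0.51 (adjusted p = 0.0395). The change in dog1-4 was -0.31 ± 0.19 (adjusted p = 0.297), called without dog1-4 replicate 2 (-0.49, adjusted p = 0.0470).

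LHCB4.3 (AT2G40100), the CP29 copy also classed as LHCB8, stood at 3.03, 2.44, 4.83 and 3.21 CPM in Col-0 and at 4.1, 6.67, 4.78 and 2.94 CPM in brm-3. In dog1-4 it stood at 8.07, 7.74, 11.4 and 4.58 CPM and in brm-3dog1-4 at 5.80, 8.35, 10.5 and 7.95 CPM. The double mutant libraries lay above Col-0, and 1 dog1-4 library overlapped it. The increase was 2.33-fold in brm-3dog1-4 (log2 1.22 ± 0.36, adjusted p = 0.0038) and 2.35-fold in dog1-4 (1.23 ± 0.40, adjusted p = 0.0204). The dog1-4 call was lost without Col-0 replicate 1 (1.17, adjusted p = 0.0614) or 2 (1.14, adjusted p = 0.0512), without dog1-4 replicate 1 (1.22, adjusted p = 0.0513) or 3 (1.00, adjusted p = 0.108) and in DESeq2 (adjusted p = 0.0504). LHCB4.2 (AT3G08940) was at 13.8 ± 3.0 CPM in Col-0 and 13.1 ± 1.2 CPM in brm-3dog1-4, with a log2 difference of 0.00 ± 0.24 (adjusted p = 0.998). With library size as the scale that difference was 0.57 (adjusted p = 0.0419). The last 300 bases of the 3 copies share no run over 8 bases.

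**Figure D3:**
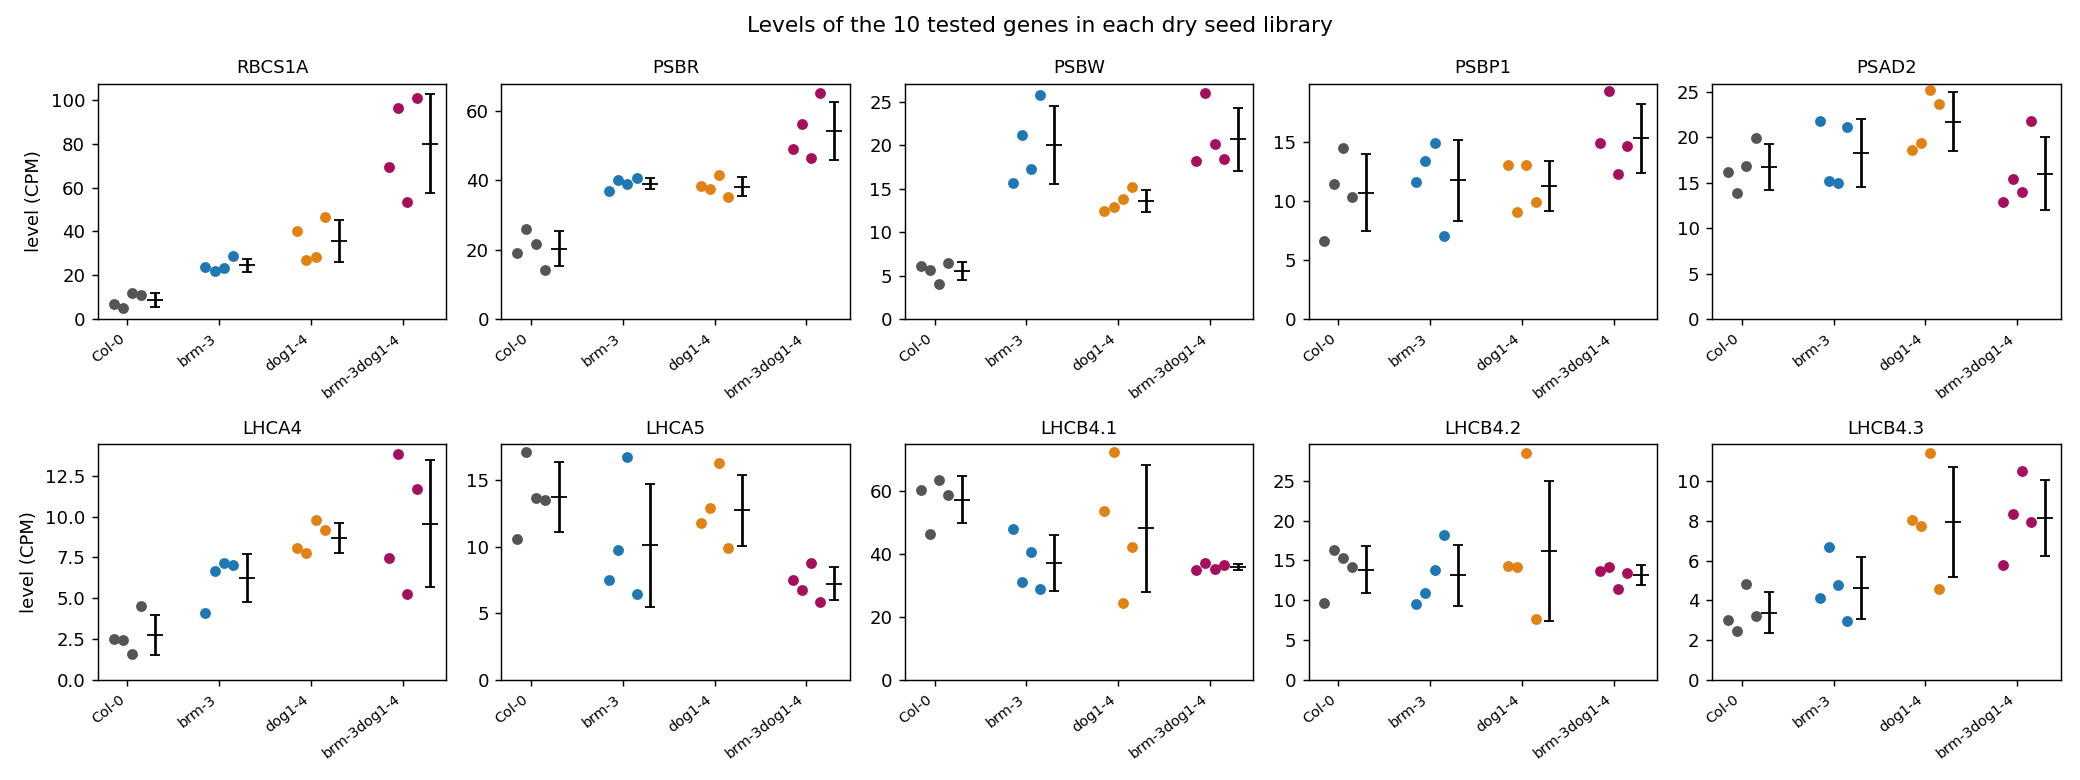
Level in CPM of each tested gene in each library (points, 4 per genotype) with the mean and SD beside them. The axes start at 0 and differ between genes: RBCS1A, PSBR and PSBW lie above Col-0 in all mutant libraries, and LHCA5 and LHCB4.1 lie below Col-0 in all 4 brm-3dog1-4 libraries.

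The major antenna of photosystem II, the most abundant antenna of leaves, was close to absent from the stored mRNA. The 9 genes of this group, LHCB1.1 (AT1G29920), LHCB1.2 (AT1G29910), LHCB1.3 (AT1G29930), LHCB1.4 (AT2G34430), LHCB1.5 (AT2G34420), LHCB2.1 (AT2G05100), LHCB2.2 (AT2G05070), LHCB2.3 (AT3G27690) and LHCB3 (AT5G54270), had 4 counts in Col-0, 13 in brm-3, 2 in dog1-4 and 14 in the double mutant. LHCB1.3 had the most in Col-0, with 2, 1, 0 and 0 counts in its libraries, and 11 counts in all 16. LHCB1.2 and LHCB2.2 had 0 everywhere. Of the 14 double mutant counts 11 were in replicate 2, the deepest library. No difference was detectable at this depth. The LHCB1 copies share runs of up to 37 bases in their last 300, so reads may have been moved between them or left out.

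In all, 35 of the 45 genes failed the filter on low counts, and 22 were at 0 in every Col-0 library, which allows up to 3 counts in each. The 5 genes at 0 in all 16 libraries were LHCA6 (AT1G19150), LHCB1.2, LHCB2.2, LHCB6 (AT1G15820) and RBCS2B. Of the other genes that failed the filter, 23 had 1 to 20 counts over all libraries and 7 had more. In all 25 genes, with the 5 at 0 among them, had at most 3 counts in any library. The 35 genes summed to 9.59, 10.6, 7.24 and 11.6 CPM in Col-0 and to 17.8, 15.8, 25.7 and 25.3 CPM in brm-3. They summed to 19.2, 15.5, 20.4 and 12.2 CPM in dog1-4 and to 15.7, 34.4, 28.0 and 20.5 CPM in brm-3dog1-4. The sums of all 12 mutant libraries were above those of Col-0, and the mutants overlapped each other.

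Among these low genes PSAH1 (AT3G16140), a photosystem I subunit, had 10 counts in Col-0, 28 in brm-3, 15 in dog1-4 and 33 in the double mutant. LHCB5 (AT4G10340), the inner antenna protein CP26, had 11, 27, 16 and 30. LHCA1 (AT3G54890), the partner of LHCA4, had 2, 15, 6 and 27, in the same order. PSAL (AT4G12800), which takes part in the docking of antenna to photosystem I, had 0, 5, 10 and 15, PSAF (AT1G31330) 2, 3, 2 and 19, and PSAO (AT1G08380) 1, 3, 2 and 14. PSAE2 (AT2G20260) had 7, 9, 5 and 11. The other genes were LHCA2 (AT3G61470), LHCA3 (AT1G61520), PSAE1 (AT4G28750), PSAG (AT1G55670), PSAH2 (AT1G52230), PSAK (AT1G30380) and PSAN (AT5G64040), with 2 to 10 counts over all libraries.

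With every gene of at least 1 count kept in the fit, 30 of the 35 were tested. LHCA1 (adjusted p = 0.0019), PSAL (0.0028), PSAF (0.0289) and PSAO (0.0409) were then higher in brm-3dog1-4, PSAL (0.0060) was higher in dog1-4, and PSAE1 was lower in brm-3dog1-4 than in dog1-4 (0.0278). In Col-0 LHCA1, PSAL, PSAF and PSAO had 2, 0, 2 and 1 counts over all libraries, near the floor. Replicate 2 of brm-3dog1-4, the deepest library, held 11 of their 27, 8 of 15, 10 of 19 and 7 of 14 double mutant counts. These genes were not refitted without that library. The share of all genes called in this fit was not recorded, so these calls cannot be set beside it.

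**Figure D4:**
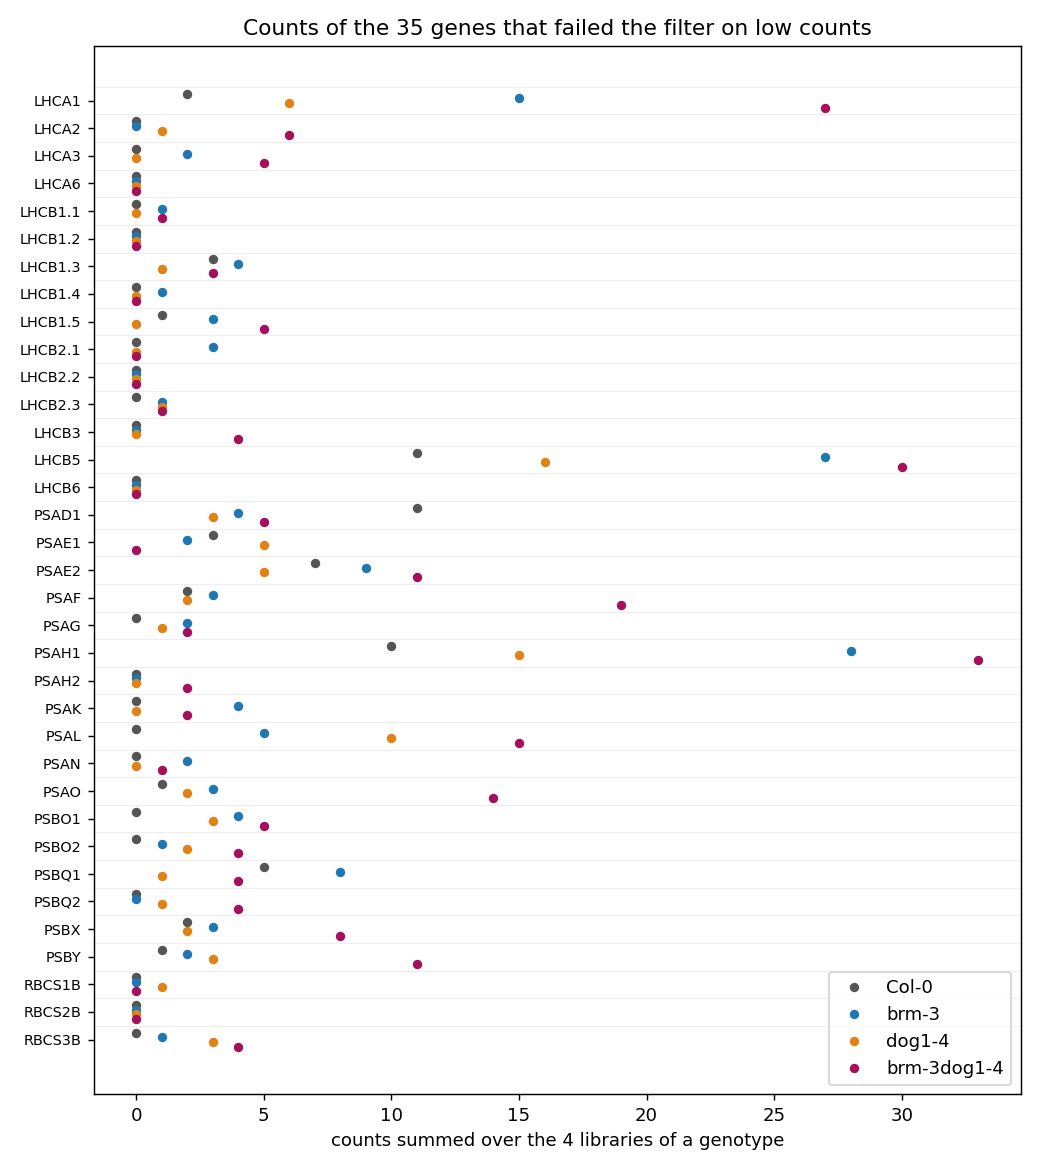
Counts summed over the 4 libraries of each genotype (horizontal axis) for the 35 genes that failed the filter on low counts. Few exceed 20 counts in a genotype, and PSAH1 reaches the most, 33 in brm-3dog1-4; totals are not scaled to library size.

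Between the mutants, brm-3dog1-4 had 3 of the 10 genes higher than brm-3 (RBCS1A, PSBR and LHCA4) and none lower, where 18.5% of all tested genes were higher and 19.7% lower. Only RBCS1A passed a log2 fold change of 1 (background 6.88%). At an unadjusted p under 0.05 in edgeR none was lower either, and DESeq2 called none lower. LHCB4.3, at 0.76 ± 0.33 (adjusted p = 0.0584), was called without brm-3 replicate 2 (0.99, adjusted p = 0.0303) and without brm-3dog1-4 replicate 1 (0.89, adjusted p = 0.0356), and also with upper-quartile factors (adjusted p = 0.0388), library size (5.9e-04), the replicate block (0.0422) and only the groups compared (0.0486). Against dog1-4, 3 genes were higher (RBCS1A, PSBR and PSBW) and LHCA5 lower, where 12.1% were higher and 15.4% lower, and again RBCS1A alone passed a log2 fold change of 1 (background 3.75%). Without brm-3dog1-4 replicate 4, PSAD2 was also lower than in dog1-4 (-0.62, adjusted p = 0.0296), and without dog1-4 replicate 3 LHCB4.1 was (-0.58, adjusted p = 0.0055).

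The single mutants gave no called difference from each other among the 10 genes, where 8.03% of all tested genes were higher and 8.4% lower in brm-3 than in dog1-4. At an unadjusted p under 0.05 in edgeR 1 was higher and 2 were lower, and DESeq2 called none. The nearest was RBCS1A, lower in brm-3 than in dog1-4 by a log2 difference of -0.58 ± 0.22 (adjusted p = 0.0661). That difference was called in 9 alternatives, which included library size as the scale (-0.78, adjusted p = 0.0401), only the groups compared (adjusted p = 0.0163) and leaving out dog1-4 replicate 2 (-0.66, adjusted p = 0.0435) or 3 (-0.69, adjusted p = 0.0358) or brm-3dog1-4 replicate 2 (adjusted p = 0.0421), 3 (0.0207) or 4 (0.0382). Every brm-3 library lay above every dog1-4 library for PSBW, with a difference of 0.56 ± 0.22 (adjusted p = 0.0759) that was called without brm-3 replicate 1 (0.66, adjusted p = 0.0472). LHCB4.1 was called lower in brm-3 without dog1-4 replicate 3 (-0.55, adjusted p = 0.0161).

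Other genes of photosynthesis were read from lists of 84 genes, of which 74 are nuclear and 41 of those were tested. In brm-3dog1-4 against Col-0, 24 of these 41 rose and 5 fell, with a median log2 fold change of 0.64, beside the 22.8% and 23.3% of all tested genes given above. In brm-3 3 rose and 1 fell, beside 5.22% higher and 5.02% lower among all tested genes. In dog1-4 9 rose and 2 fell, beside 9.84% and 8.58%. The same shares apply to each list below. The same filter was applied to these lists, so genes with few counts in Col-0 could pass it through mutant libraries where they were higher. The numbers of genes higher in these lists and their medians therefore also lean towards increases.

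In the Calvin cycle all 9 tested genes changed in brm-3dog1-4, 7 upwards. TKL1 (AT3G60750), a plastid transketolase, went from 4.73 ± 1.08 CPM in Col-0 to 19.8 ± 4.98 CPM (log2 2.08 ± 0.26, adjusted p = 5.2e-10). RCA (AT2G39730), Rubisco activase, stood at 2.12 ± 0.42 CPM in Col-0, 4.03 ± 0.91 in brm-3, 9.98 ± 2.51 in dog1-4 and 12.2 ± 1.5 in the double mutant. It rose in dog1-4 (log2 2.19 ± 0.39, adjusted p = 1.2e-05) and in brm-3dog1-4 (2.47 ± 0.34, adjusted p = 1.0e-08). FBA1 (AT2G21330), a plastid aldolase, fell by 1.22 ± 0.15 in brm-3dog1-4 (adjusted p = 5.0e-10), from 43.8 ± 2.2 to 18.1 ± 3.0 CPM.

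In electron transport and ATP synthase 4 of 6 tested genes rose in brm-3dog1-4 and none fell, in edgeR also at an unadjusted p under 0.05, or in DESeq2. PETC (AT4G03280), the Rieske protein of the cytochrome b6f complex, rose in brm-3 (log2 0.86 ± 0.23, adjusted p = 0.0076), in dog1-4 (1.07 ± 0.23, adjusted p = 3.9e-04) and in brm-3dog1-4 (1.57 ± 0.20, adjusted p = 2.9e-09). Without Col-0 replicate 1 the brm-3 value was 0.67 (adjusted p = 0.0791). ATPG (AT4G32260), a subunit of the plastid ATP synthase, rose by 0.59 ± 0.17 in brm-3dog1-4 (adjusted p = 0.0038).

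Chlorophyll synthesis genes were mixed, with 3 of 9 tested genes higher and 2 lower in brm-3dog1-4. CAO (AT1G44446), which makes chlorophyll b, fell by 0.75 ± 0.13 in brm-3dog1-4 (adjusted p = 3.3e-06) and by 0.60 ± 0.14 in dog1-4 (adjusted p = 0.0013), values that were -0.18 and -0.37 with library size as the scale (adjusted p = 0.267 and 0.0718). FLU (AT3G14110), a brake on the pathway, rose by 0.95 ± 0.18 (adjusted p = 8.1e-06). PORA (AT5G54190), which reduces protochlorophyllide in etiolated seedlings, had 0 counts in all 16 libraries, PORB (AT4G27440) 2 and PORC (AT1G03630) 19.

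Among the relatives of the antenna proteins ELIP1 (AT3G22840), an early light-induced protein, had 47, 15, 18 and 27 counts in Col-0. It had 3, 5, 3 and 2 in brm-3, 6, 4, 4 and 7 in dog1-4, and 0 in all brm-3dog1-4 libraries. It fell in brm-3 (log2 -3.08 ± 0.36, adjusted p = 3.3e-09) and dog1-4 (-2.02 ± 0.33, adjusted p = 3.9e-06), and was at least 11.1-fold lower in brm-3dog1-4 with 3 counts per library as the floor. LIL3.2 (AT5G47110), of the LIL3 proteins that anchor late steps of chlorophyll synthesis, rose by 2.25 ± 0.36 in brm-3dog1-4 (adjusted p = 5.9e-07). ELIP2 (AT4G14690) had 1 count in all, in Col-0.

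The listed regulators gave 8 of 11 tested genes higher in brm-3dog1-4, 4 in dog1-4 and none in brm-3, and none lower in any of the 3. At an unadjusted p under 0.05 in edgeR 2 were higher in brm-3 (GLK2 and PIF4) and 1 lower in brm-3dog1-4 (GUN1), and DESeq2 called none of these. GLK2 (AT5G44190), an activator of the genes described here, stood at 5.93 ± 1.90 CPM in Col-0, 9.42 ± 2.34 in brm-3, 19.3 ± 1.0 in dog1-4 and 18.2 ± 1.9 in the double mutant. It rose in dog1-4 (log2 1.72 ± 0.27, adjusted p = 7.1e-07) and brm-3dog1-4 (1.61 ± 0.25, adjusted p = 1.4e-07). GLK1 (AT2G20570) had 0 to 3 counts in any library. PIF1 (AT2G20180), a repressor of germination and greening in the dark, rose by 1.41 ± 0.20 (adjusted p = 1.6e-08). PIF4 (AT2G43010) had 2 counts in Col-0 and 105 in brm-3dog1-4, a ratio of 34.8 per scaled library with an exact 95% interval of 9.41 to 291.4 that covers counting error only.

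Of 10 plastid-encoded partners 5 were tested, and 3 rose in brm-3dog1-4 against Col-0. Against brm-3 and against dog1-4, 1 of the 5 was called lower in the double mutant and 0 higher. Among all tested genes 19.7% were lower and 18.5% higher against brm-3, and 15.4% lower and 12.1% higher against dog1-4. The 10 summed to 550.7 ± 63.0 CPM (SD) in Col-0 and 553.7 ± 102.9 in the double mutant. The sums were 779.8 ± 154.2 CPM in brm-3 and 856.5 ± 305.2 in dog1-4. Plastid mRNAs mostly lack stable poly(A) tails, so a poly(A)-primed library samples them poorly. The gene atpB (ATCG00480) rose by 1.11 ± 0.20 in brm-3dog1-4 (adjusted p = 4.7e-06) and psbC (ATCG00280), a core antenna of photosystem II, by 1.32 ± 0.34 (adjusted p = 0.0010). 

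**Figure D5:**
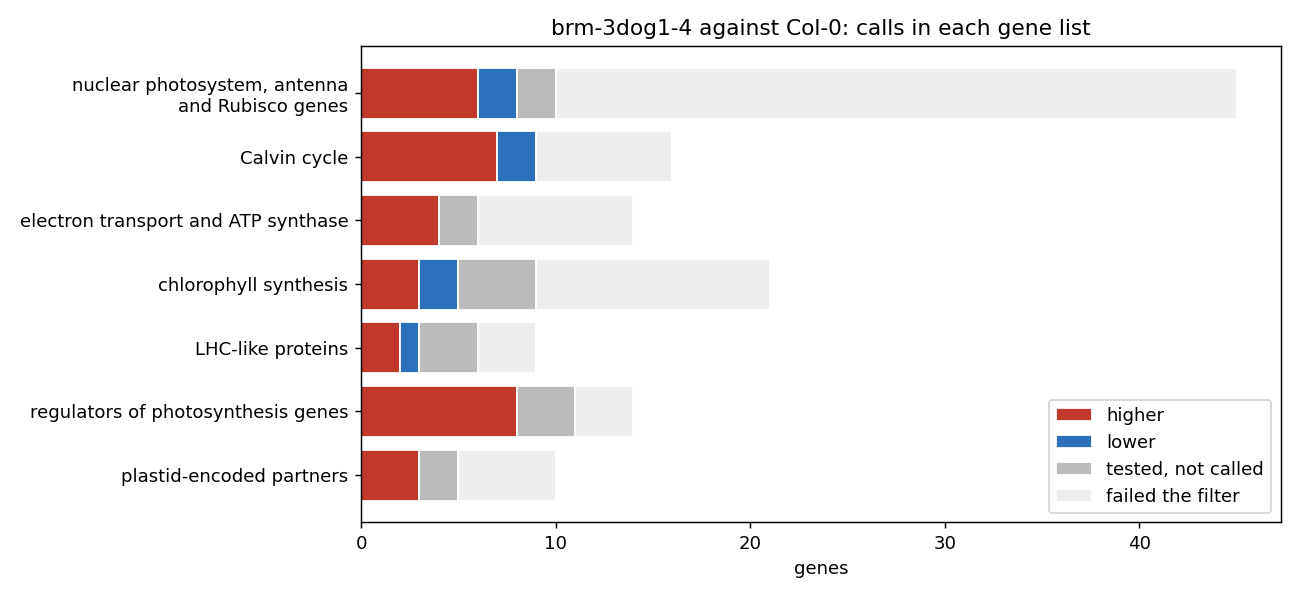
Number of genes (horizontal axis) higher, lower, tested but not called, or below the filter in brm-3dog1-4 against Col-0, for the 45 genes and the other lists. The 45 genes have 6 higher and 2 lower, and the Calvin cycle list has 7 higher and 2 lower of 16.

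Markers of other tissues and of germination were read beside these results. Of 5 vegetative and silique markers, 4 (all but TGG1) were at 0 in every Col-0 library and summed to 0 in 3 of the 4 brm-3dog1-4 libraries and to 3.53 CPM (11 counts) in replicate 2. Without that library 5 of the 10 genes stayed higher and 2 lower in brm-3dog1-4 against Col-0. With TGG1 the 5 vegetative and silique markers summed to 38.8 ± 6.6 CPM (SD) in Col-0 and 20.4 ± 5.4 in brm-3. They summed to 30.9 ± 9.8 CPM in dog1-4 and 27.7 ± 13.4 in the double mutant. Only 1 of these 5 markers was tested, and it was not called in any mutant against Col-0. The 4 markers of growth at germination summed to 0 to 3.21 CPM in Col-0, 1.19 to 4.78 in brm-3, 1.53 to 4.89 in dog1-4 and 9.64 to 22.8 in the double mutant. The expansin genes EXPA1, EXPA2 and EXPA8 were at 0 in all Col-0 libraries, and EXPA2 had 12, 37, 1 and 16 counts in brm-3dog1-4. The 7 seed markers summed to 83488 to 114750 CPM in Col-0 and to 53920 to 71978 CPM in brm-3dog1-4. In the double mutant the summed growth markers were thus higher and the summed seed markers lower than in Col-0. None of the 4 growth markers passed the filter, so their difference has no test. With 3 counts per Col-0 library as the floor, EXPA1, EXPA2 and EXPA8 were at least 1.12-, 2.94- and 1.42-fold higher. Of the 7 seed markers 5 were called lower and 1 higher, where 23.3% of all tested genes were lower and 22.8% higher. The part of all these markers in the result was not tested.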

How the data were processed

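Polyadenylated RNA of dry seeds was measured in 16 libraries, 4 for each genotype, made with barcoded oligo(dT) primers and pooled. The authors deposited raw counts per gene for each library, and the submitters' processing notes name STAR 2.7.8a, DESeq2 and TAIR10. The counting program, the use of strand, the treatment of reads that match several genes and any molecular identifiers are not given in the sources used here, so near-identical copies are uncertain and intervals and floors cover counting error only. No column of the files was without a sample (0).

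Samples were grouped by the genotype in the labels. Genes passing filterByExpr by genotype (10251) were fitted in edgeR 4.0.16 (R 4.3.3) with TMM factors, a mean per genotype and robust quasi-likelihood dispersion over all 16 libraries, and p-values were adjusted by Benjamini-Hochberg over all 10251 genes for each of 7 contrasts. Total counts ran from 803578 to 2359673 per library. The interaction is the change in brm-3dog1-4 minus the sum of the changes in brm-3 and dog1-4. Alternatives were RLE, upper-quartile or no scaling factors, other filters on low counts, a limit on the log2 fold change of 1, a replicate block, only the groups compared, DESeq2 1.42.0, near-identical copies summed, the sum without its most counted gene, and leaving out each library.

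Genes were described per library by role group, where they had the highest level in Col-0, the smallest adjusted p against Col-0 or a called interaction; LHCB4.2 was added as a range end, and all others are named with counts. From each other list the 2 genes with the smallest adjusted p in brm-3dog1-4 were named, and the GLK, POR, RCA and ELIP genes whatever their values. The rule for the 45 genes uses locus identifiers alone, but this group and the other lists were chosen with earlier results of these data known. Gene positions and upstream sequence were read from RefSeq (TAIR10.1), where all 45 identifiers matched; the files hold no coordinates.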

Additional observations from a re-analysis of the deposited data

Results flagged for a closer look

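LHCA4 had 1 brm-3 library apart from the others of its group: replicate 1 stood at 4.1 CPM and the other 3 at 6.67, 7.17 and 7.05 CPM. It was the only such library in 44 groups of 4 libraries examined, of which chance gives about 1 in 20. The LHCA4 difference between brm-3 and Col-0 was called without it (log2 1.28, adjusted p = 0.0427 in edgeR's quasi-likelihood test) and missed the threshold with it.

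PSBW changed differently in the double mutant than the single mutants add up to, with an interaction of -1.20 ± 0.35 on the log2 scale (adjusted p = 0.0193). All 4 libraries of each mutant lay above the Col-0 libraries. Its cause was not tested.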

How the results depend on the processing

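With RLE or upper-quartile factors the counts of called genes among the 10 tested stayed within 1.5 times. Library size only gave brm-3 lower 0, brm-3dog1-4 lower 0 against Col-0, 8 higher against brm-3, 0 lower against dog1-4, 1 lower in brm-3 than in dog1-4, and 0 negative interactions. It gave summed levels of 141.3 CPM in Col-0, 182.4 in brm-3 and 366.8 in brm-3dog1-4, and reversed LHCB4.1 in brm-3dog1-4 against brm-3 (0.51) and PSAD2 against Col-0 (0.52). At least 10 counts in every library left 5 of the 45 genes and gave 1 higher in brm-3, dog1-4, brm-3dog1-4, and brm-3dog1-4 against brm-3 and against dog1-4, with 0 negative interactions; fewer genes were tested. The added fold limit gave 0 lower in brm-3, 0 lower in brm-3dog1-4, 1 higher against brm-3, and 1 higher and 0 lower against dog1-4. No filter gave 10 higher in brm-3dog1-4, 2 lower against dog1-4 and 1 lower in brm-3 than dog1-4, as did the replicate block and the fit of only the groups compared (1 each). The deviations of same-numbered libraries had a mean r of 0.0197 over 24 pairs, 0 of them above 0.1, and differently numbered libraries one of -0.0065 over 72 pairs; 9 of 16 libraries were closest to their own number, a hint from the data only, and the numbers were not taken as pairs. Without RBCS1A the sums were 181.3 CPM (brm-3), 195.1 CPM (dog1-4) and 204.7 CPM (brm-3dog1-4). DESeq2 gave 6 of the 10 genes no adjusted p for the interaction.

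Leaving out 1 library gave these ranges: brm-3 higher 3 to 4 and lower 0 to 1; dog1-4 higher 4 to 5 and lower 0 to 1; brm-3dog1-4 higher 5 to 6 and lower 2 to 2; against brm-3 higher 2 to 4 and lower 0 to 1; against dog1-4 higher 2 to 3 and lower 1 to 2; brm-3 against dog1-4 higher 0 to 1 and lower 0 to 2; interaction negative 0 to 1 and positive 0 to 0. Summed levels ran from 158.2 to 166.5 CPM in Col-0, 201.7 to 210.3 for brm-3, 228.4 to 235.6 for dog1-4 and 270.5 to 298.0 for brm-3dog1-4. Among the named genes 3796 values kept their side of the threshold, 67 newly passed it, 53 no longer passed it and 2 reversed; the cause was not tested. Depth limits the 35 genes below the filter.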
